A study of Homo sapiens with 12 samples.

Results

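The miR-130, miR-301 and miR-454 family is a group of human miRNAs that share the seed, bases 2 to 8 from the 5′ end, through which a miRNA recognises its targets. It was measured in HCT116, a line from a human colorectal carcinoma, in cells where DICER, the enzyme that cuts precursor hairpins into miRNAs, was supplied by a rescue construct. The family was taken by name from the count tables: 8 of the 1346 miRNA entries, of which 5 were the strands that carry the seed (hsa-miR-130a-3p, hsa-miR-130b-3p, hsa-miR-301a-3p, hsa-miR-301b-3p and hsa-miR-454-3p) and 3 were partner strands from the other side of the same hairpins (hsa-miR-130b-5p, hsa-miR-301a-5p and hsa-miR-454-5p). The prefix for the human species is left out from here on. All 8 passed the filter on low counts, as did 374 of the 1346 entries.

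The 12 libraries fell into 6 groups of 2, named by the rescue DICER: R821E, R821A, E5, A5, ΔPAZ helix and wild type (WT). In R821E and R821A the same arginine is replaced by glutamate and by alanine. The sources used here do not give what E5 and A5 stand for, whether the cells' own DICER gene was intact, or whether each line was a single clone or a pool. The assay was AQ-seq, a small-RNA sequencing method with reduced ligation bias, in which RNAs of known sequence (spike-ins) are counted beside the miRNAs. The labels number the replicates but do not say that they came from separate cultures, so a p-value reflects how much these libraries spread and no more.

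DICER releases a duplex of 2 strands, one from the 5′ side (5p) and one from the 3′ side (3p) of the hairpin, and an Argonaute protein keeps one of them as the guide. In this family the 3p strand is usually described as the guide and carries the shared seed, so its members are predicted to recognise largely the same messenger RNAs. miR-130a is known for repressing the homeobox genes GAX and HOXA5 in endothelial cells, miR-130b for repressing TP53INP1, and miR-301a for repressing NKRF, an inhibitor of NF-κB. DICER generates both strands in 1 reaction, so each strand was followed separately.

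The mature sequences are shown because the seed defines the family and because similar strands can share reads. Sequences were found for 7 of the 8 members in RefSeq (GRCh38.p14), which was searched by miRNA name; miR-130a-3p is named only. Capitals mark the seed.
miR-130b-3p: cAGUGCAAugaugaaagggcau
miR-301a-3p: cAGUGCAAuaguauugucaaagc
miR-301b-3p: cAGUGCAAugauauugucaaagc
miR-454-3p: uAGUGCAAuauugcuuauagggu
miR-130b-5p: aCUCUUUCccuguugcacuac
miR-301a-5p: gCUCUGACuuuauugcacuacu
miR-454-5p: aCCCUAUCaauauugucucugc

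The 4 printed 3p strands had the identical seed AGUGCAA, whereas the 3 partner strands had 3 different seeds. miR-454-3p began with U and the other 3 seed strands with C. Among the 4 printed 3p strands, miR-301a-3p and miR-301b-3p were the closest pair, identical at 21 of 23 positions. They differed by A10G and G11A, with miR-301a-3p as the reference and positions counted from 1 at the 5′ end. The sources used here do not give how reads that fit both were assigned, so the split of counts between miR-301a-3p and miR-301b-3p is uncertain. The other pairs of printed 3p strands were identical at 10 to 13 positions of the 22 or 23 compared. miR-130a-3p was not compared, so how close it is to miR-130b-3p, and whether these strands share reads, was not determined.

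The hairpins are shown because the 2 strands of miR-130b, miR-301a and miR-454 were compared with each other. Capitals mark the 5p strand on the left and the 3p strand on the right (RefSeq, GRCh38.p14).
MIR130B: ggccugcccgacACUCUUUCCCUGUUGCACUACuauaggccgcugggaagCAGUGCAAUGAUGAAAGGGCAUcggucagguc
MIR301A: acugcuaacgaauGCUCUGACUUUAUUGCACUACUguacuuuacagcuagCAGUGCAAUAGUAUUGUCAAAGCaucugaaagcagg
MIR454: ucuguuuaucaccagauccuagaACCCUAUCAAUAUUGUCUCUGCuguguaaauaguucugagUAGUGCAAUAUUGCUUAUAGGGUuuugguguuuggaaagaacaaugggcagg

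From the first base of the 5p strand to the last base of the 3p strand, the precursor was 60 bases long in MIR130B, 60 in MIR301A and 63 in MIR454. The stretch between the strands was 17 bases in MIR130B, 15 in MIR301A and 18 in MIR454. In the structure of lowest predicted energy (RNAfold), 4 of the 7 seed bases of miR-454-3p were paired, against all 7 in miR-130b-3p and all 7 in miR-301a-3p. MIR301A (chr17:59151136-59151221, minus strand) and MIR454 (chr17:59137758-59137872, minus strand) both lie in intronic sequence of the protein-coding gene SKA2 (GENCODE 29, GRCh38). Whether they share an intron was not determined. MIR301B (chr22:21652981-21653058, plus strand) lies in an intron and MIR130B (chr22:21653304-21653385, plus strand) in an exon of the noncoding gene AP000553.1. MIR130A (chr11:57641198-57641286, plus strand) lies in an intron of AP000662.1. The family therefore comes from 3 loci, and within the chromosome 22 and chromosome 17 loci members share a host gene.

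The libraries held 144067 to 255296 miRNA counts, in which 617 to 804 entries were detected. At this depth 3 counts equalled 11.8 to 20.8 CPM, the count scaled to a common library size, here by total miRNA counts alone. The total of miRNA counts per spike-in count was 14.3 ± 1.38 in R821E, 19.6 ± 2.73 in R821A, 17.1 ± 0.856 in E5, 18.5 ± 0.206 in A5, 19.2 ± 1.92 in ΔPAZ helix and 24.2 ± 2.49 in WT (SD, n = 2 each). miR-21-5p took 58.0% and 54.0% of the miRNA counts in R821E libraries, against 37.7% and 43.2% in WT libraries. Levels of the members are therefore given on a pair of scales: CPM with TMM factors, which sets a member against the other miRNAs, and counts per 1000 spike-in counts, which sets it against the added RNA. On the spike-in scale the median log2 fold change of all 374 entries was -1.38 in R821E, -0.35 in R821A, -0.56 in E5, -0.46 in A5 and -0.45 in ΔPAZ helix, each over WT. The 2 WT libraries differed from each other more than any other pair (chi-square per degree of freedom 25.6, against 3.83 in the closest pair, ΔPAZ helix). For the marker lists CPM used total miRNA counts alone, without TMM factors, so these sums are not on the members' scale. Epithelial and colonic markers (8 of 8 detected) summed to 942 and 1076 CPM in R821E libraries and to 2746 and 2967 CPM in WT libraries, with miR-215-5p, the weakest, at 5 counts in all. The list of fibroblast and endothelial miRNAs (4 of 4 detected) summed to 502 to 583 CPM in R821E libraries and 1258 to 1583 CPM in WT libraries, and that of leukocyte miRNAs (4 of 4 detected) to 124.9 to 148.3 CPM in R821E and 295 to 443 CPM in WT. Neuronal miRNAs (3 of 3 detected) summed to 933 to 993 CPM in R821E and 618 to 647 CPM in WT, erythroid miRNAs (4 of 4) to 266 to 361 CPM in R821E and 235 to 271 CPM in WT. The hepatocyte marker miR-122-5p had 14 counts in all, the neuronal marker miR-124-3p had 1 and the muscle marker miR-133a-3p had 1. The part of these lists in the family's values was not tested.

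As a whole, the seed strands were scarcest in R821E and most abundant in WT, while the sum of the partner strands varied less. That sum joins unlike strands. In R821E over WT on the spike-in scale, miR-130b-5p (-1.12 log2) and miR-301a-5p (-1.45 log2) were lower, and miR-454-5p stood at 0.05. The 5 seed strands together had 11.4 and 8.72 counts per 1000 spike-in counts in R821E libraries, 31.1 and 37.8 in R821A, 19.1 and 23.9 in E5, 23.8 and 24.8 in A5, and 28.7 and 22.4 in ΔPAZ helix, against 40.9 and 48.0 in WT. The R821E libraries lay below all others and the WT libraries above all others, while E5, A5 and ΔPAZ helix overlapped. The 3 partner strands together had 11.6 and 10.3 counts per 1000 spike-in counts in R821E, 12.6 to 13.9 in the other 4 mutant groups, and 14.6 and 14.3 in WT. The ratio of partner to seed strands was 1.10 ± 0.111 in R821E and 0.327 ± 0.0418 in WT (SD, n = 2 each), with 0.386 ± 0.0747 in R821A, 0.614 ± 0.106 in E5, 0.532 ± 0.0340 in A5 and 0.544 ± 0.107 in ΔPAZ helix. These sums and their ratio are a description of the libraries, with no test. The ratio sets the 5p strands of 3 hairpins against the 3p strands of 5, since miR-130a-5p and miR-301b-5p were counted but are not members.

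**Figure D1:**
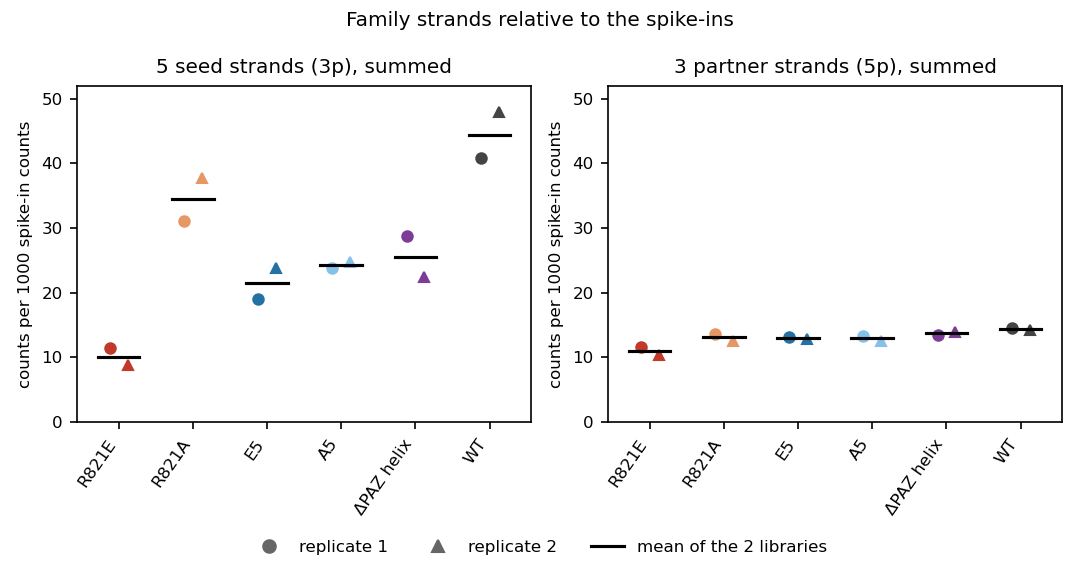
Summed counts of the 5 seed strands (left) and the 3 partner strands (right) per 1000 spike-in counts in each library, by rescue DICER; points are libraries and lines the mean of 2. The R821E libraries had 11.4 and 8.72 for the seed strands, below every other library. For the partner strands all libraries lay between 10.3 and 14.6, with the R821E libraries again lowest.

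As a share of all miRNA counts, the seed strands were a minor group. They made up 0.0741% (95% Wilson interval 0.0638% to 0.0862%) and 0.0653% (0.0533% to 0.0798%) in the R821E libraries, against 0.182% (0.166% to 0.200%) and 0.185% (0.169% to 0.203%) in the WT libraries. The intervals cover counting error only. The mean share in R821E was 38.0% of the WT mean, and 51.5% of it when miR-21-5p was left out of the totals. miR-130a-3p was the most abundant seed strand in every library, with 64.7% and 64.9% of the family's seed-strand counts in R821E and 60.0% and 44.6% in WT. In WT the order after it was miR-301a-3p at 250 and 416 CPM, then miR-454-3p at 142.2 and 301.4 CPM and miR-130b-3p at 208 and 179 CPM, with miR-301b-3p last at 34.7 and 68.7 CPM. miR-454-3p overlapped both miR-301a-3p and miR-130b-3p, while miR-301a-3p lay above miR-130b-3p in both WT libraries.

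In R821E cells miR-454-3p and miR-301a-3p fell against the other miRNAs, while miR-454-5p rose on that scale but had a log2 fold change of 0.05 against the spike-ins. Of the 5 seed strands, 2 were lower at an adjusted p under 0.05 on the TMM scale (edgeR quasi-likelihood test, Benjamini-Hochberg over 374 entries), where 24.1% of all entries were lower. Among the tested 3p entries 37.8% were lower, so 2 of 5 is near the share of 3p strands at large. The median of the 5 seed strands was -1.28 log2, against -0.58 for all tested 3p entries and -0.10 for all entries. Of the 3 partner strands 1 was higher, where 23.8% of all entries were higher.

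miR-454-3p, the seed strand from one of the SKA2 intronic hairpins, showed the largest fitted decrease of the family. It had 12 and 8 counts in R821E libraries, against 41 and 79 in WT libraries. In CPM this was 73.3 and 69.1 in R821E and 142.2 and 301.4 in WT. Both R821E libraries lay below both WT libraries, and the WT libraries differed from each other by more than the R821E libraries did. The log2 fold change of miR-454-3p in R821E over WT was -1.62 ± 0.39 (SE; edgeR adjusted p = 0.00440). The fall stayed past the threshold when any 1 library was left out, with adjusted p between 3.95e-04 and 0.0379. Without WT replicate 2 its log2 fold change was smaller in size, -1.04.

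miR-301a-3p, from the other SKA2 intronic hairpin, had 134 and 138 CPM in R821E libraries, against 250 and 416 CPM in WT libraries. The R821E libraries were nearly equal and lay below both WT libraries. Its log2 fold change was -1.28 ± 0.37 (SE; edgeR adjusted p = 0.0112), and it missed the threshold without WT replicate 2, without R821E replicate 1 or without R821E replicate 2, with adjusted p up to 0.0795. Its near twin miR-301b-3p had 3 and 2 counts in R821E libraries, against 10 and 18 in WT libraries, with a log2 fold change of -1.49 ± 0.66 (SE; edgeR adjusted p = 0.0709). The ratio of its summed counts per library size was 0.352 in R821E over WT, with an exact 95% interval of 0.106 to 0.923 for counting error only. Without WT replicate 1 miR-301b-3p passed the threshold (edgeR adjusted p = 0.0317).

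Neither miR-130 seed strand passed on the TMM scale. miR-130a-3p had 672 and 527 CPM in R821E libraries, against 950 and 778 CPM in WT libraries, without overlap. Its log2 fold change was -0.52 ± 0.23 (SE; edgeR adjusted p = 0.0713). miR-130b-3p had 140 and 60.5 CPM in R821E libraries, against 208 and 179 CPM in WT libraries, so the R821E libraries differed from each other by more than the WT libraries did. Its log2 fold change was -0.88 ± 0.35 (SE; edgeR adjusted p = 0.0530). Without WT replicate 2 both passed, at an edgeR adjusted p of 0.0343 for miR-130a-3p and 0.0495 for miR-130b-3p, and miR-130b-3p also without R821E replicate 1, at -1.67 log2 and 0.0173. Without R821E replicate 2 the log2 fold change was smaller in size, -0.46 for miR-130b-3p and -0.36 for miR-130a-3p (edgeR adjusted p = 0.320 and 0.318), and without WT replicate 1 miR-130a-3p was also at -0.36 (edgeR adjusted p = 0.287).

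The partner strands differed among themselves. miR-454-5p, the strand opposite miR-454-3p, had 776 and 726 CPM in R821E libraries, against 312 and 279 CPM in WT libraries, with no overlap. Its log2 fold change was 1.35 ± 0.21 (SE; edgeR adjusted p = 2.62e-04), and 0.05 ± 0.20 on the spike-in scale (edgeR adjusted p = 0.855). Against the spike-ins miR-454-5p varied little over the whole series: all 12 libraries lay between 7.56 and 9.15 counts per 1000 spike-in counts. miR-130b-5p had 226 and 173 CPM in R821E libraries and 170 and 187 CPM in WT libraries, and miR-301a-5p had 61.1 and 60.5 CPM in R821E and 83.2 and 53.4 CPM in WT. The groups overlapped for both, with log2 fold changes of 0.18 ± 0.30 for miR-130b-5p and -0.17 ± 0.50 for miR-301a-5p (SE; edgeR adjusted p = 0.650 and 0.791).

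**Figure D2:**
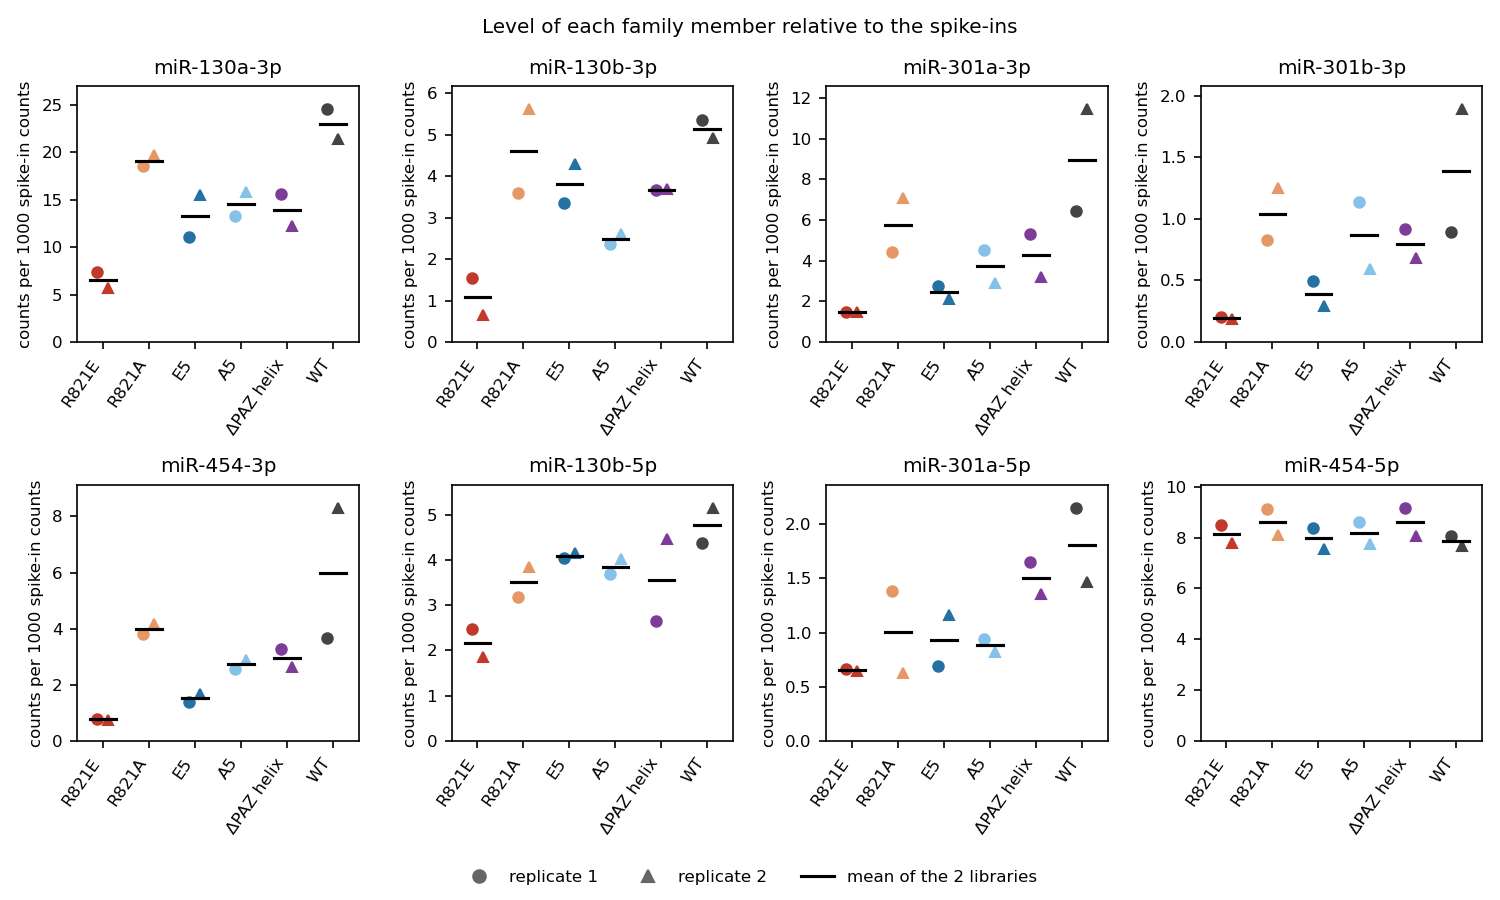
Counts per 1000 spike-in counts of each of the 8 members by rescue DICER; points are libraries, lines the mean of 2, and each panel has its own linear axis starting at 0. miR-454-5p lay between 7.56 and 9.15 in all 12 libraries, whereas miR-454-3p lay at 0.802 and 0.742 in R821E and at 3.67 and 8.29 in WT.

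Measured against the spike-ins, 7 of the 8 members were lower in R821E than in WT at an adjusted p under 0.05, where 60.4% of all entries were lower and 69.6% of the 3p entries. The exception was miR-454-5p. The 5 seed strands had log2 fold changes of -2.92 ± 0.41 for miR-454-3p, -2.75 ± 0.65 for miR-301b-3p, -2.58 ± 0.40 for miR-301a-3p, -2.17 ± 0.37 for miR-130b-3p and -1.81 ± 0.23 for miR-130a-3p (SE, n = 2 libraries a group; edgeR adjusted p from 1.39e-05 to 0.00177). Their median, -2.58, compares with -1.88 for all 3p entries and with the shift of -1.38 over all entries. miR-130a-3p was thus close to the median 3p entry on this scale. The 2 lower partner strands, miR-130b-5p at -1.12 ± 0.30 and miR-301a-5p at -1.45 ± 0.47 (edgeR adjusted p = 0.00565 and 0.0148), lay near the shift of all entries.

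**Figure D3:**
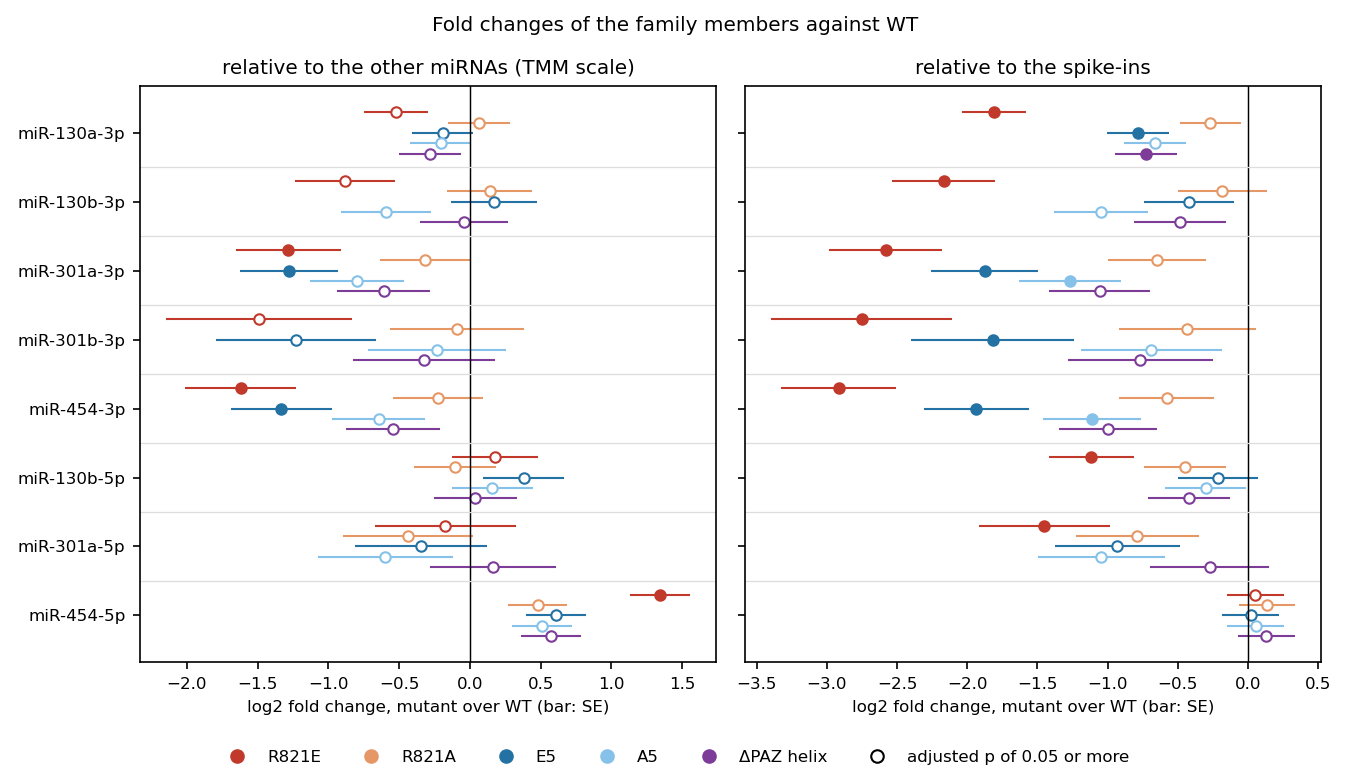
Log2 fold change of each member in 5 mutants over WT, against the other miRNAs (left) and against the spike-ins (right); bars are SE of the edgeR fit and filled points have an adjusted p under 0.05. In R821E miR-454-5p stood at 1.35 on the left but 0.05 on the right, and the 5 seed strands lay left of 0 in both panels, 2 of them filled on the left and all 5 on the right.

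The balance of the 2 strands of a hairpin does not depend on the scale, since library size cancels. It was taken as log2 of 5p over 3p counts, each with 0.5 added, and tested with limma over 69 hairpins, those whose 2 strands each averaged 20 counts or more. miR-130b and miR-454 were among them. In R821E the strand ratio of both shifted toward 5p, where 43.5% of the 69 hairpins shifted toward 5p and 13.0% toward 3p.

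For miR-454 the log2 ratio was 3.35 and 3.31 in R821E libraries, 1.26 and 0.95 in R821A, 2.56 and 2.15 in E5, 1.73 and 1.40 in A5, and 1.46 and 1.60 in ΔPAZ helix, against 1.12 and -0.11 in WT. R821E lay above every other library and E5 above all the rest. In 11 of the 12 libraries miR-454-5p had more counts than miR-454-3p, the strand with the family seed. In counts with nothing added, the 5p strand of miR-454 was 10.5 ± 0.0589 times the 3p strand in R821E and 1.56 ± 0.899 times in WT (SD, n = 2 each). The shift in R821E over WT was 2.83 ± 0.39 (SE; limma adjusted p = 2.15e-04), rank 3 of the 69 hairpins from the top, whose median shift was 0.40. It passed the threshold with any 1 library left out, with limma adjusted p between 1.97e-05 and 0.00242.

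For miR-130b the log2 ratio was lower in size and the shift smaller. The 5p strand was 2.23 ± 0.883 times the 3p strand in R821E and 0.930 ± 0.160 times in WT (SD, n = 2 each, counts with nothing added). The shift in R821E over WT was 1.18 ± 0.36 (SE; limma adjusted p = 0.0213), which ranked 21 of 69. It missed the threshold without WT replicate 1 or without R821E replicate 2, with limma adjusted p up to 0.144. With at least 5 mean counts asked for, 112 hairpins were tested, among them miR-130a, whose 5p strand is not among the 8 members. The miR-130a shift was 0.74 ± 0.47 (SE, limma adjusted p = 0.237), with the 3p strand the more abundant one in both groups. miR-301a also entered only at that limit. Its shift was then 1.12 ± 0.65 (SE; limma adjusted p = 0.196), with the 3p strand the more abundant one in both groups.

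**Figure D4:**
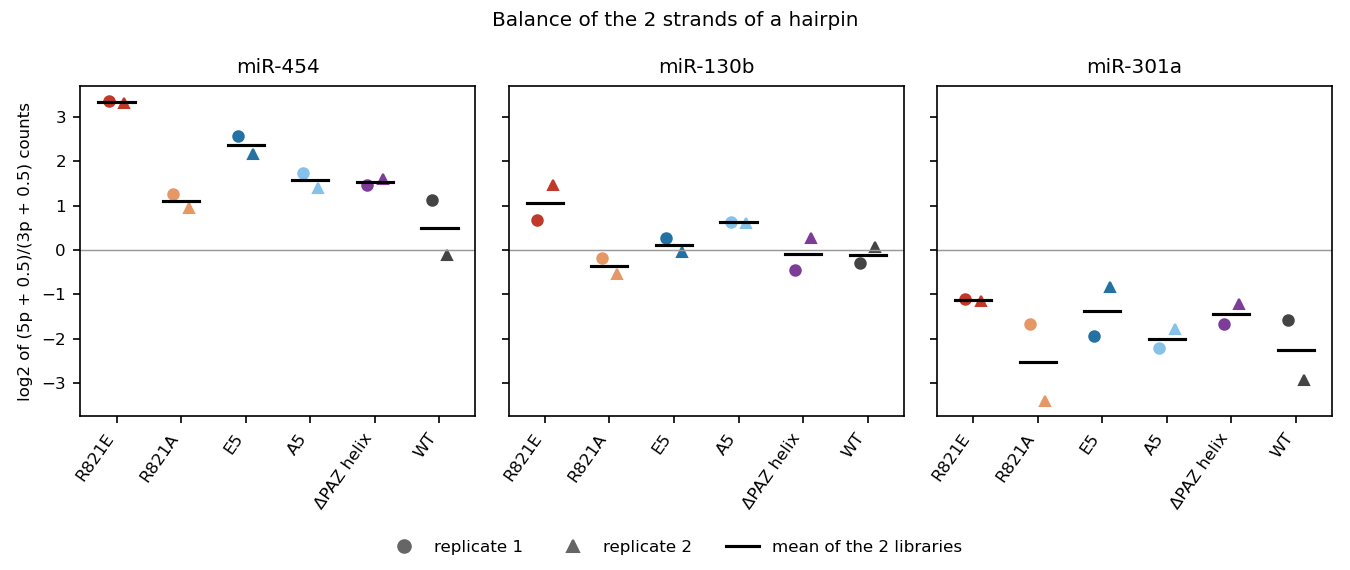
Log2 ratio of 5p to 3p counts of the miR-454, miR-130b and miR-301a hairpins by rescue DICER, with 0.5 added to each count; points are libraries, lines the mean of 2, and 0 means equal strands. For miR-454 the R821E libraries stood at 3.35 and 3.31, above every other library, and the WT libraries at 1.12 and -0.11.

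In E5 cells the same 2 SKA2 strands, miR-301a-3p and miR-454-3p, were lower than in WT on the TMM scale, where 6.68% of all entries were lower and 2.41% higher. Of the 3p entries 9.46% were lower. miR-454-3p had 77.3 and 96.0 CPM in E5 libraries, against 142.2 and 301.4 CPM in WT, and miR-301a-3p had 155 and 121 CPM in E5, against 250 and 416 CPM in WT. Both E5 libraries lay below both WT libraries for each strand. The log2 fold change was -1.33 ± 0.35 for miR-454-3p (SE; edgeR adjusted p = 0.0320) and -1.28 ± 0.35 for miR-301a-3p (SE; edgeR adjusted p = 0.0351). Both calls were lost without WT replicate 2, without E5 replicate 1 or without E5 replicate 2, where the edgeR adjusted p reached 0.240 for miR-454-3p and 0.186 for miR-301a-3p, and DESeq2 called neither. Without WT replicate 2 the log2 fold change of miR-454-3p in E5 was -0.73.

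miR-301b-3p had 5 and 4 counts in E5 libraries against 10 and 18 in WT libraries, a log2 fold change of -1.23 ± 0.57 that missed the threshold (SE; edgeR adjusted p = 0.208). The miR-130 strands gave -0.19 ± 0.22 for miR-130a-3p and 0.17 ± 0.31 for miR-130b-3p, and both overlapped WT. miR-130b-3p thus lay at 188 and 246 CPM in E5 libraries and at 208 and 179 CPM in WT libraries. The 5p to 3p ratio of miR-454 shifted by 1.85 ± 0.39 in E5 over WT (SE; limma adjusted p = 0.0221), the highest of 69 hairpins, of which 4.35% shifted toward 5p. That call was lost without WT replicate 2 or without either E5 library, with limma adjusted p up to 0.200, and when 112 hairpins were tested, at 0.0899. Against the spike-ins 4 of the 5 seed strands were lower in E5, where 27.3% of all entries and 31.8% of the 3p entries were lower. The exception was miR-130b-3p (log2 fold change -0.42 ± 0.32, edgeR adjusted p = 0.347).

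In A5, ΔPAZ helix and R821A cells none of the 8 members passed the edgeR test on the TMM scale. For A5 and ΔPAZ helix 0.267% of all entries were lower and 0.00% higher, and for R821A 2.94% were lower and 0.267% higher. At an unadjusted p under 0.05 there were 2 members in A5, 1 in ΔPAZ helix and 1 in R821A. The share of all entries at that unadjusted level was not counted, so no excess is read from these numbers. DESeq2 also called none of the 8 in these comparisons. miR-454-3p had 135 and 147 CPM in A5 libraries, 162 and 140 CPM in ΔPAZ helix libraries and 193 and 184 CPM in R821A libraries, against 142.2 and 301.4 CPM in WT. All of these lay above the R821E and E5 libraries, and they overlapped WT or lay within its range. The log2 fold change of miR-454-3p was -0.64 ± 0.33 in A5, -0.54 ± 0.33 in ΔPAZ helix and -0.23 ± 0.32 in R821A (SE; edgeR adjusted p = 0.380, 0.526 and 0.899).

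Against the spike-ins, A5 had miR-301a-3p at -1.27 ± 0.36 and miR-454-3p at -1.11 ± 0.35 (SE, edgeR adjusted p = 0.0353 and 0.0497). In A5 14.7% of all entries and 18.9% of the 3p entries were lower. For miR-301a-3p that was 4.54 and 2.90 counts per 1000 spike-in counts in A5 libraries, against 6.44 and 11.4 in WT libraries. ΔPAZ helix had miR-130a-3p at -0.72 ± 0.22 (SE, edgeR adjusted p = 0.0477), where 13.1% of all entries and 17.6% of the 3p entries were lower. R821A had no member past the threshold on this scale, where 4.28% of all entries were lower, and no member at an unadjusted p under 0.05. miR-130a-3p had 18.5 and 19.7 counts per 1000 spike-in counts in R821A libraries, against 24.5 and 21.4 in WT libraries. The shift of the miR-454 strand ratio over WT was 1.06 ± 0.39 in A5, 1.03 ± 0.39 in ΔPAZ helix and 0.60 ± 0.39 in R821A (SE; limma adjusted p = 0.282, 0.323 and 0.701), and no hairpin of the 69 was called in any of these comparisons (0.00%). The unadjusted limma p of the miR-454 shift was 0.0199 in A5, 0.0236 in ΔPAZ helix and 0.152 in R821A. Without WT replicate 1 it passed the threshold in A5 at 1.68 (limma adjusted p = 0.0320) and in ΔPAZ helix at 1.65 (limma adjusted p = 0.0382).

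The R821E, R821A, E5, A5 and ΔPAZ helix comparisons with WT share the same 2 WT libraries. The mutants were therefore also set directly against each other. Between R821E and R821A, 2 of the 5 seed strands were lower and 1 partner strand was higher on the TMM scale, where 19.5% of all entries were lower and 21.9% higher. Among the 3p entries 30.4% were lower, so 2 of 5 is near that share. miR-454-3p had 73.3 and 69.1 CPM in R821E libraries, against 193 and 184 CPM in R821A libraries, 2 groups whose replicates were each close together. Its log2 fold change was -1.39 ± 0.40 (SE; edgeR adjusted p = 0.0150). The call was lost without either R821E library or without R821A replicate 1, at an edgeR adjusted p of up to 0.0785, although the log2 fold change stayed between -1.44 and -1.36. miR-301a-3p, at -0.97 ± 0.38 (SE; edgeR adjusted p = 0.0526), passed the threshold without R821A replicate 1, at 0.0499.

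miR-130b-3p had 140 and 60.5 CPM in R821E libraries, against 182 and 248 CPM in R821A libraries, a log2 fold change of -1.02 ± 0.35 (SE; edgeR adjusted p = 0.0332). It was lost without R821E replicate 2 or without R821A replicate 2, with edgeR adjusted p up to 0.212. Without R821E replicate 2 and without R821A replicate 2 only 1 of the 8 members was called. miR-454-5p had 776 and 726 CPM in R821E libraries, against 463 and 358 CPM in R821A libraries, a log2 fold change of 0.87 ± 0.21 (SE; edgeR adjusted p = 0.00638) that turned to -0.08 ± 0.20 on the spike-in scale. Its call was also lost without R821A replicate 2 (edgeR adjusted p = 0.0501), with total miRNA counts as library size (0.34 log2, edgeR adjusted p = 0.241) and with no filter on low counts (0.69 log2, edgeR adjusted p = 0.0914). Against the spike-ins all 5 seed strands were lower in R821E than in R821A, where 48.9% of all entries were lower and 63.5% of the 3p entries, with log2 fold changes between -2.34 and -1.54. The strand ratio shifted toward 5p by 2.23 ± 0.39 for miR-454 and by 1.42 ± 0.36 for miR-130b (SE; limma adjusted p = 0.00170 and 0.00911), where 34.8% of hairpins shifted that way. The miR-130b shift was lost without R821E replicate 2 or without R821A replicate 2, with limma adjusted p up to 0.0812.

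Between R821E and E5 no difference was detected in the SKA2 seed strands on the TMM scale, while miR-130b-3p fell and miR-454-5p rose. miR-301a-3p had 134 and 138 CPM in R821E libraries and 155 and 121 CPM in E5 libraries, a log2 fold change of -0.01 ± 0.41 (SE). Differences of either sign well beyond that error could also have been missed. In R821E over R821A, miR-301a-3p at -0.97 ± 0.38 (SE) was not called. miR-454-3p gave -0.29 ± 0.44 (SE; edgeR adjusted p = 0.673). miR-130b-3p was lower in R821E, at 140 and 60.5 CPM against 188 and 246 CPM in E5 (log2 fold change -1.05 ± 0.36, SE; edgeR adjusted p = 0.0379), and miR-454-5p was higher (0.74 ± 0.21, SE; edgeR adjusted p = 0.0190). In this comparison 13.9% of all entries were lower and 16.3% higher, and 25.0% of the 3p entries were lower. The 1 seed strand lower of 5 is thus not above the share of 3p strands at large. miR-130b-3p lost its call without R821E replicate 2 or E5 replicate 2, and miR-454-5p without any single one of the 4 libraries, with edgeR adjusted p up to 0.243 and 0.123, and miR-454-5p stood at 0.03 ± 0.20 on the spike-in scale. Without E5 replicate 2 and without R821E replicate 2 none of the 8 members was called. Against the spike-ins miR-130a-3p, miR-130b-3p and miR-130b-5p were lower in R821E than in E5. There 36.4% of all entries and 44.6% of the 3p entries were lower, and 1.07% of all entries were higher. The strand ratios gave 0.98 ± 0.39 for miR-454 and 0.95 ± 0.36 for miR-130b (SE; limma adjusted p = 0.0786 and 0.0736), where the share of the 69 was 18.8% toward 5p and 2.90% toward 3p.

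Between E5 and A5 none of the 8 members and none of the 374 entries passed the edgeR test on either scale (0.00% lower and 0.00% higher). DESeq2 also called none of the 8. On the TMM scale 1 member had an unadjusted p under 0.05, miR-130b-3p, and the share of all entries at that level was not counted. It had 188 and 246 CPM in E5 libraries against 125 and 132 CPM in A5 libraries (log2 fold change 0.76 ± 0.32, SE, edgeR adjusted p = 0.475). miR-454-3p had 77.3 and 96.0 CPM in E5 libraries against 135 and 147 CPM in A5 libraries, also without overlap (log2 fold change -0.69 ± 0.37, SE; edgeR adjusted p = 0.593).

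Over the 12 libraries the seed strands could be grouped by their correlations into 2 sets, which kept the chromosome 17 pair together and divided the chromosome 22 pair. The CPM of miR-301a-3p, miR-301b-3p and miR-454-3p on a log2 scale correlated with each other at Pearson r between 0.86 and 0.92, and miR-130a-3p with miR-130b-3p at 0.70. Across these sets r lay between 0.31 and 0.59, and miR-454-5p had r between -0.79 and -0.62 with the 5 seed strands. Of the pairs that share a host gene, miR-301a-3p and miR-454-3p had r = 0.86, and miR-301b-3p and miR-130b-3p had r = 0.31. These correlations describe 12 libraries of 6 groups that share depth and TMM factors, and miR-301a-3p and miR-301b-3p may also share reads. Whether miR-130a-3p and miR-130b-3p share reads was not determined. The sets were read from these same correlations. WT replicate 2 lay above WT replicate 1 for miR-301a-3p, miR-301b-3p and miR-454-3p but below it for miR-130a-3p and miR-130b-3p. miR-301b-3p had only 2 to 18 counts per library.

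The entries whose level followed the summed seed strands most closely over the 12 libraries were miR-200a-3p (Pearson r = 0.91), miR-221-3p (0.91), miR-331-3p (0.89), miR-29a-3p (0.88) and miR-627-5p (0.86). miR-320a was the closest entry outside the family to miR-301a-3p (r = 0.94), miR-301b-3p (0.92) and miR-454-3p (0.91). The closest to miR-130a-3p was miR-103a-3p (0.90) and to miR-130b-3p miR-34a-5p (0.92). miR-454-5p was followed by miR-100-5p at r = 0.98, whereas the closest entries to miR-130b-5p (miR-148a-5p, 0.65) and miR-301a-5p (miR-196b-5p, 0.71) were less alike.

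miRNAs whose seed overlaps that of the family by an offset of 1 base were taken as a list of 5: miR-148a-3p, miR-148b-3p and miR-152-3p with the seed CAGUGCA, and miR-19a-3p and miR-19b-3p with the seed GUGCAAA. miR-152-3p did not pass the filter on low counts. In R821E over WT 4 of the 4 tested were lower on the TMM scale (edgeR adjusted p under 0.05), where 24.1% of all entries and 37.8% of 3p entries were lower, from -1.19 ± 0.31 for miR-148a-3p to -0.59 ± 0.19 for miR-19a-3p. None of the 4 passed the edgeR test on that scale in R821A, E5, A5 or ΔPAZ helix over WT, and 0 had an unadjusted p under 0.05. In E5, where miR-454-3p stood at -1.33, miR-148a-3p gave -0.28 ± 0.28 and miR-19b-3p 0.23 ± 0.25 (SE). Against R821A, 3 of the 4 were lower in R821E, where 19.5% of all entries and 30.4% of 3p entries were lower. Against E5 all 4 were, where 13.9% of all entries and 25.0% of 3p entries were lower. In the same list miR-148a-3p and miR-148b-3p are known regulators of DNMT1, a DNA methyltransferase.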

How the data were processed

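The authors deposited raw counts per miRNA entry for 12 AQ-seq libraries. Per the labels' protocols, total RNA was extracted with TRIzol, amplified with Q5 polymerase and sequenced on a NovaSeq instrument. Per the submitters' processing notes, the tools were bedtools, BWA and cutadapt and the builds mm10 and hg38. The sources used here do not give their versions, what each build was for or how reads that fit several miRNAs were treated.

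The 30 spike-in entries entered neither the tests nor the miRNA library sizes. Entries were filtered with filterByExpr (374 tested, 99.6% of miRNA counts) and fitted in 1 edgeR 4.0.16 quasi-likelihood model over 12 libraries (6 residual degrees of freedom) with TMM factors of 0.714 to 1.15, Benjamini-Hochberg adjustment and a threshold of 0.05. A second fit used summed spike-in counts as library size. Strand ratios were tested with limma 3.58.1. Structures were folded with RNAfold 2.7.2, and R 4.3.3 and Python 3.11.15 were used. The scripts were tested on simulated data. DESeq2 1.42.0, other filters and scales, single fits of 4 libraries and left-out libraries were the alternatives. No 2 libraries of a group agreed within sampling noise, so none was taken as a copy of another and each counted once. That check cannot tell separate cultures from separate preparations of the same culture.

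The members and lists were chosen with earlier results of these data known. All 8 members are named, with per-library values for those above 100 CPM in any group or called, and the entries most like them by Pearson r.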

Additional observations from a re-analysis of the deposited data

How the results depend on the processing

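The number of family members called depended mainly on the scale. Total miRNA counts as library size gave 6 members in R821E over WT (3 with TMM) and 5 in R821E over R821A (3 with TMM). Calls over all 374 entries in R821E over WT also rose, to 188 with total miRNA counts and 227 with spike-ins, from 179 with TMM. The other counts of members in this paragraph are given without the calls over all entries, so they are not read as changes of the family alone. Spike-ins as library size gave 7 in R821E, 4 in E5, 2 in A5 and 1 in ΔPAZ helix over WT, and 5 in R821E over R821A; they turned miR-130b-5p in R821E over WT to -1.12 (0.18 with TMM) and miR-454-5p in R821E over R821A to -0.083 (0.87 with TMM). A filter of 100 CPM gave 5 in R821E over R821A. In E5 over WT the 2 members became 0 with DESeq2 and 0 in a fit of only the 4 libraries; in R821E over E5 the 2 became 1 with no filter, 1 with DESeq2 and 1 in the 4 libraries. Hairpins with a changed strand ratio became 1 in R821E over WT in the 4 libraries, and 0 in E5 over WT both in the 4 libraries and at 5 counts in both strands; at 100 counts no family hairpin remained to be tested. With 1 library left out, its lone partner assumed to vary like the other groups, members called ranged from 2 to 4 in R821E over WT, 0 to 2 in E5 over WT, 1 to 3 in R821E over R821A and 0 to 1 in R821E over E5. Hairpins then ranged from 1 to 2 in R821E over WT, 0 to 1 in E5, A5 and ΔPAZ helix over WT, and 1 to 2 in R821E over R821A. The seed-strand share as a percent of WT was 38.0 in R821E, 96.0 in R821A, 68.6 in E5, 71.6 in A5 and 72.4 in ΔPAZ helix; per spike-in count it was 22.6, 77.5, 48.3, 54.7 and 57.6 in that order, and without miR-21-5p 51.5 in R821E and 76.5 in A5. Elsewhere 688 values for single members or hairpins kept their direction and side of the threshold, 33 uncalled ones changed sign, 47 lost and 36 gained the call, 69 uncalled ones moved in value, 22 of them with a change of sign, and 5 had no adjusted p in DESeq2. The cause of these changes was not tested.

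The labels give each group replicates 1 and 2. The numbers did not pair the libraries: over 15 pairs of groups the correlation of same-numbered deviations ranged from -0.50 to 0.37, above 0.1 in 1 pair. With a replicate block 1 member was called in E5 over WT and 1 in R821E over E5.

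Depth limits the rare strands most: miR-301b-3p had 2 to 18 counts per library.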
